A study of Mus musculus with 6 samples.

Results

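The genes of the MEF2 transcription factors Mef2a, Mef2c and Mef2d were examined for chromatin accessibility in mouse bone marrow B-cells. A peak was taken as a member when it overlapped the body of 1 of the 3 genes. A peak that overlapped no protein-coding gene was also taken when its nearest protein-coding gene, within 100 kb, was 1 of them. The rule found 90 of the 97124 deposited peaks, of which 21 belonged to Mef2a, 51 to Mef2c and 18 to Mef2d. The rule used positions only, and no file links a peak to the gene it acts on. Within a gene, peaks are numbered by increasing coordinate.

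The assay was ATAC-seq, where a transposase inserts sequencing adapters into open chromatin, applied to 6 primary bone marrow samples from mice of the strain that the labels name PEtg. The cells carried H2B-GFP, a histone fused to green fluorescent protein that becomes diluted when a labelled cell divides. By the labels, high H2B-GFP marks the quiescent group (n = 3 samples) and low H2B-GFP the proliferating group (n = 3 samples). All 6 samples shared the PEtg background, and no sample from mice without it was analysed here. The sources used here do not give age, sex, treatment, the number of mice or the promoter that drives H2B-GFP. They also do not say that each sample came from its own mouse, so the p-values cover only the spread between samples, and that spread may be technical.

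MEF2 proteins bind AT-rich DNA sites through a MADS box. At such sites they recruit class IIa histone deacetylases, which repress, or acetyltransferases such as p300, which activate. Calcium-dependent kinases and p38 or ERK5 signalling shift the balance toward activation. In the B lineage Mef2c is known for roles in B-cell development and in survival and proliferation after antigen receptor signalling, and Mef2d acts beside it in early B-cell development.

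The deposited value is a signal per peak that the authors had scaled so that totals were nearly equal, at 20904407 to 21518630 per sample. The reads behind it, recovered from its steps, were fewest in proliferating sample 1 (8052910) and most in proliferating sample 3 (48799011). In the limma test of quiescent against proliferating samples, 5876 of 87411 tested peaks passed a Benjamini-Hochberg adjusted p of 0.05, 3501 higher and 2375 lower in quiescent cells. All 6 B-cell marker genes that could be looked up had a peak at their start. The signal per gene is the sum over a list's start peaks, divided by all genes looked up, also those without a peak. For the B-cell genes it was 2020 to 2338 in quiescent and 2174 to 2577 in proliferating samples. Of their 10 start peaks, 1 of the 2 at Pax5 was lower in quiescent cells (log2 fold change -0.55, limma adjusted p 0.0354). No peak was listed at the starts of the myeloid genes Mpo, Elane and Cebpa. Over all 5 myeloid genes the signal per gene was 46.6 to 51.1 in quiescent and 35.2 to 36.8 in proliferating samples. The 2 with a peak were Itgam (112, 139 and 131 against 64.0, 83.9 and 88.5) and Lyz2 (121, 101 and 125 against 120, 91.9 and 89.5). The T and NK genes Cd3e, Cd3d, Lck and Ncr1 had no start peak either, and 2 of 6 genes had one. Over all 6 the signal per gene was 224 to 315 against 198 to 220. The strongest of 3 start peaks of Klrb1c had 1244, 901 and 786 against 885, 886 and 979. Another of them was higher (log2 fold change 1.17, limma adjusted p 0.0153). Of the erythroid and megakaryocyte genes 1 of 6 had a peak, and the signal over all 6 was 46.6 to 59.2 against 40.4 to 68.7 per gene. Of the muscle genes 1 of 3 had a peak, and the signal over all 3 was 81.1 to 96.4 against 112 to 137 per gene. That gene, Acta2, had 251, 243 and 289 against 337, 405 and 412. Both plasmacytoid dendritic genes that could be looked up had a start peak, with 372 to 488 per gene in quiescent and 254 to 318 in proliferating samples. Siglech alone carried that difference, with 418, 595 and 626 against 286, 165 and 196 (log2 fold change 1.35, limma adjusted p 0.0174). Bst2 had 326, 319 and 350 against 351, 343 and 351 (log2 fold change -0.07, limma adjusted p 0.81).

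The RefSeq (GRCm38.p6) promoter set used here gives 1 start for Mef2a, 3 for Mef2c and 1 for Mef2d. Their promoter sequences are shown because the accessibility at these starts differed between the genes. The annotated bodies reach further 5′ than the given start, to 67376456 for Mef2a (start at 67372858) and to 88141941 for Mef2d (start at 88142372). Distances to a start use the given starts only. Each line gives 250 bases before the start and 10 bases from it, 5′ to 3′ on the gene's strand. Capitals mark matches on either strand to GGGCGG (the GC box), CCAAT (the CCAAT box), GAGGAAG (an ETS-type sequence), TGANTCA (an AP-1-type sequence) and the MEF2 site. The EBF1 site was also searched and was found in none of the 5 windows. The motifs were chosen after the sequences had been seen, and no match overlaps another.
Mef2a, minus strand, chr7:67372849-67373108: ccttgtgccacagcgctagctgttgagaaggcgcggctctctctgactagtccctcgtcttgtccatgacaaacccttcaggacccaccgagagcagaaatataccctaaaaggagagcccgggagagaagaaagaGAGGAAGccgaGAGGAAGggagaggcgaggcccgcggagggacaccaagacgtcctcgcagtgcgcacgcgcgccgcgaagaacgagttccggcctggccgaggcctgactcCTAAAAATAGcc
Mef2c, the first start, plus strand, chr13:83503784-83504043: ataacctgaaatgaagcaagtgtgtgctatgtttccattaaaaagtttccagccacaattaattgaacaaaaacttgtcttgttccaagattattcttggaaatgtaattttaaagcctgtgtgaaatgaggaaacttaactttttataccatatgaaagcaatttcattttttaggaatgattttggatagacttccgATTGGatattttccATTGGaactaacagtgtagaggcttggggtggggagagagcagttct
Mef2c, the second start, plus strand, chr13:83523406-83523665: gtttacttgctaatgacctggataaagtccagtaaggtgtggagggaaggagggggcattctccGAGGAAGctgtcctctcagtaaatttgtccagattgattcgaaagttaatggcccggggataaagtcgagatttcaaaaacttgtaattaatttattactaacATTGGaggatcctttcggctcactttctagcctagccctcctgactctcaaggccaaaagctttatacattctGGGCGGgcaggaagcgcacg
Mef2c, the third start, plus strand, chr13:83573357-83573616: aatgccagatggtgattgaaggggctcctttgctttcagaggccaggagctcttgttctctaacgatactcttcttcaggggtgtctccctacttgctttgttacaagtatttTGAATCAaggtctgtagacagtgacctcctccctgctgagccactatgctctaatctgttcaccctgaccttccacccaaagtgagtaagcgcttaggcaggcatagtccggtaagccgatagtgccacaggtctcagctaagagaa
Mef2d, plus strand, chr3:88142122-88142381: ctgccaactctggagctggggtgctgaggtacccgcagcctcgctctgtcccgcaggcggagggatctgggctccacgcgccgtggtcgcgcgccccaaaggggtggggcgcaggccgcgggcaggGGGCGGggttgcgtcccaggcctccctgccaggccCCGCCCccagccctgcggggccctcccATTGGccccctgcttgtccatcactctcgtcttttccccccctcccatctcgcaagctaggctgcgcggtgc

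The Mef2a window holds a match to the MEF2 site itself, CTAAAAATAG, at bases 249 to 258, so that it spans the start. Such a match is present in 2.98% of the 32851 RefSeq promoter windows of the same length. The Mef2a window also holds GAGGAAG at 2 positions, a sequence found in 11.1% of windows. The window at the first Mef2c start has CCAAT at 2 positions, both on the reverse strand, and the second has GGGCGG once, a reverse CCAAT once and GAGGAAG once. At the third start the only match is TGAATCA, a form of TGANTCA, which occurs in 7.03% of windows. The Mef2d window has GGGCGG at 2 positions and CCAAT at 1, sequences present in 33.4% and 34.6% of windows. The EBF1 site is present in 0.807% of windows. The G and C content was 60.4% for Mef2a, 34.2%, 45.8% and 49.2% for the Mef2c starts in order, and 73.5% for Mef2d, against a median of 52.3% over the windows. A match to a motif describes the letters and does not show that a factor was bound.

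Accessibility at 7 Mef2 peaks was higher in quiescent cells, 4 in Mef2a, 2 in Mef2c and 1 in Mef2d, and at no Mef2 peak was it lower past the threshold. Of the 90 member peaks, 87 passed the filter on low signal. The 7 called peaks are 8.05% of these 87, against 6.72% of all tested peaks, so the share lies near the background. Higher calls made up 4.01% and lower calls 2.72% of all tested peaks. At an unadjusted p under 0.05 limma gave 18 higher and 7 lower of the 87 members, against 13.2% and 11.1% of all tested peaks. With limma voom on total scaling the recovered reads gave 9 higher and 8 lower of the 87, against 5% and 9.94% of all peaks. With median-of-ratios scaling they gave 15 higher and 2 lower of the 87, against 9.98% and 3.99%. With the replicate number as a block, 15 members were higher and 4 lower, 21.8% of the 87. The block called 18.3% of all tested peaks (10.2% higher and 8.14% lower).

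**Figure D1:**
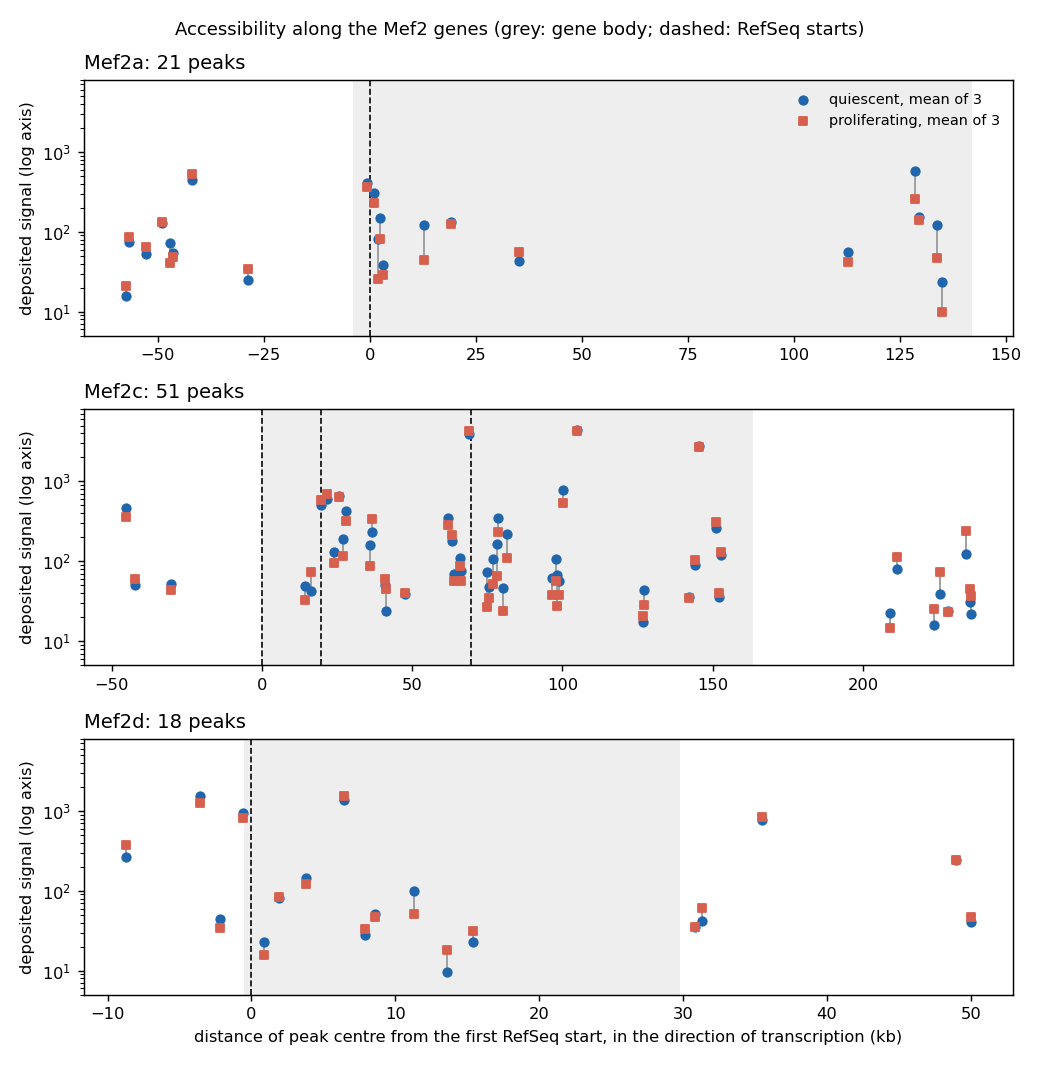
Mean deposited signal of quiescent (blue circles) and proliferating (red squares) samples, n = 3 each, on a log axis, at each member peak, against the distance of the peak centre from the gene's first RefSeq start in kb. Grey marks the gene body and dashed lines the RefSeq starts. The strongest peaks of Mef2c and Mef2d have overlapping or nearly overlapping means, and the wider gaps lie at weaker peaks inside the genes.

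The called peaks lay inside the genes and were not their strongest peaks, except Mef2a peak 4, which is among the 3 strongest of Mef2a. All 7 were in gene bodies, where they were 11.5% of 61 tested members, against 6.1% of all tested peaks that overlap a protein-coding gene (3.58% higher and 2.52% lower). None of the 26 tested members between genes was called, where 7.69% of all such peaks were. None of the 6 members within 1 kb of a start was called, against 2.73% of all peaks that close to a start. Further than 1 kb from a start, 7 of 81 members were called (8.64%), against 7.5% of all such peaks. None of the 5 members among the strongest 5% of peaks was called, where 11.2% of such peaks were. With the replicate block limma called 3 of the members between genes, all lower, and none of those near a start or among the strongest peaks. The quiescent samples lay wholly above the proliferating samples at 22 of the 87 peaks (25.3%) and wholly below at 11 (12.6%), against 15.4% and 14.9% of all tested peaks (30.4% in either direction). All 22 of the former lay in gene bodies, and 7 of the 11 latter lay between genes. The median log2 fold change was 0.07 over the 87 members and -0.009 over all tested peaks.

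**Figure D2:**
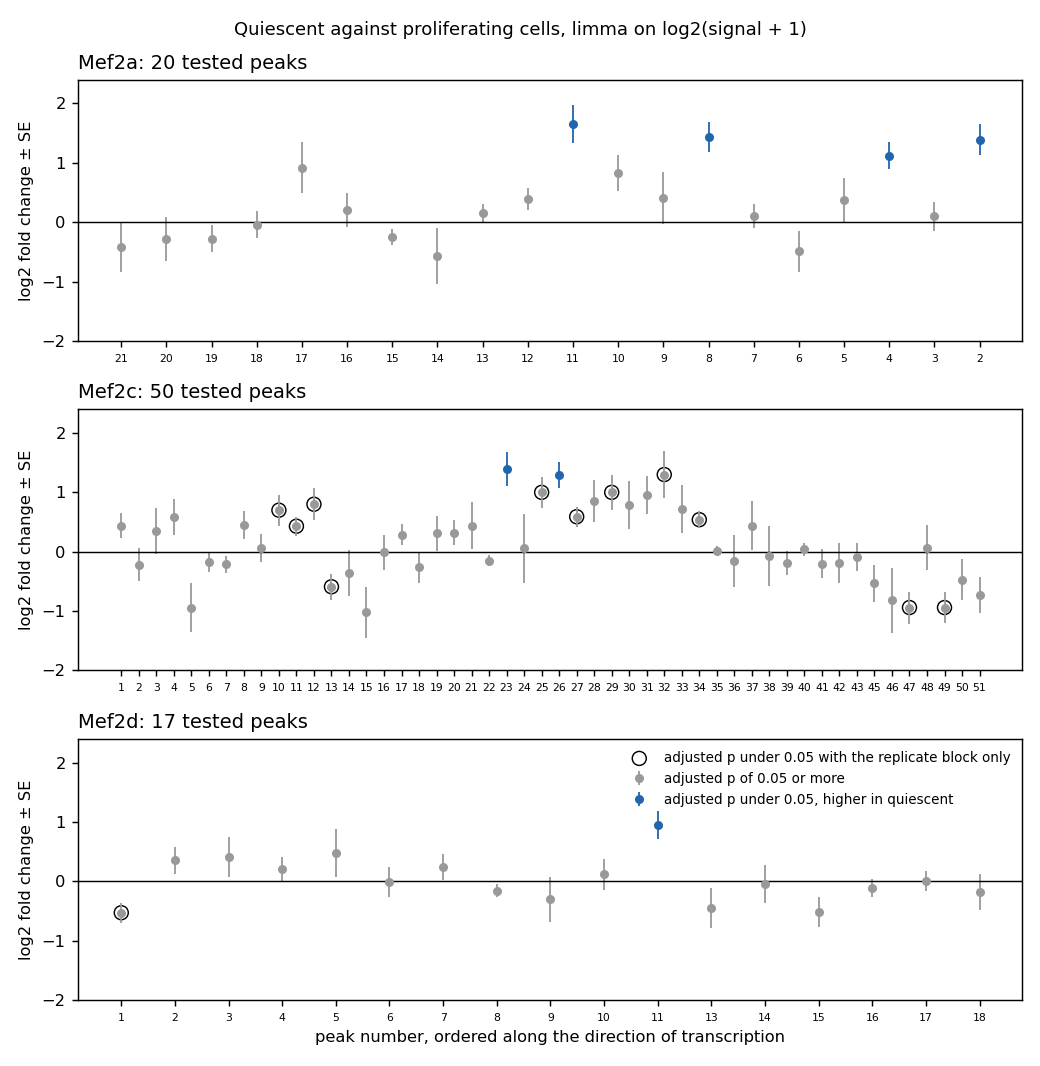
Log2 fold change of quiescent against proliferating samples with its standard error (limma on log2(signal + 1)) for the 87 tested member peaks, in the order of transcription of each gene. Blue points passed an adjusted p of 0.05, and ringed points did so only with the replicate block. In Mef2c the points between peaks 22 and 35 all lie above 0. Among the peaks named by rule, the signs at Mef2a peak 15, Mef2c peaks 6 and 22 and Mef2d peaks 5 and 8 turned with a scaling of the recovered reads. For the other points, also those between Mef2c peaks 22 and 35, the sign under that scaling is not given here.

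Mef2a, on the minus strand of chromosome 7 (67231163 to 67376456), had 4 called peaks of 20 tested (20.0%), against 2 of 50 in Mef2c (4.0%). Of all tested peaks 6.72% were called. With the replicate block the order turned, with 20.0% of the Mef2a and 26.0% of the Mef2c peaks called. The block called 18.3% of all tested peaks. A difference between the genes was not tested. Mef2a encodes a MEF2 factor that is expressed in many tissues. Its summed signal over 21 peaks was 3143, 2987 and 3090 in quiescent samples and 2435, 2371 and 2417 in proliferating samples. Every quiescent sample was higher than every proliferating sample, and the ratio of the means was 1.28. The sum includes the 4 called peaks, so it is not a result apart from the calls. The gene's median log2 fold change was 0.18 over its 20 tested peaks. It was -0.1 with total scaling of the recovered reads, which moves the median of all peaks to -0.261.

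The strongest called peak of Mef2a was peak 4 (chr7:67243621-67245031), 128.5 kb downstream of the start and inside the gene. Its signal was 748, 409 and 584 in quiescent samples 1 to 3 and 273, 218 and 289 in proliferating samples 1 to 3. The lowest quiescent sample exceeded the highest proliferating sample, and the quiescent samples varied more (mean 580 ± 170, SD, n = 3, against 260 ± 37.3). Its log2 fold change was 1.12 (SE 0.23, limma adjusted p 0.0262). Peak 2 (chr7:67238860-67239347) lay further toward the 3′ end of the gene. Its signal was 108, 123 and 135 in quiescent and 34.5, 52.5 and 53.0 in proliferating samples, groups that did not overlap. Its log2 fold change was 1.39 (SE 0.26, limma adjusted p 0.0191).

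Both other called peaks of Mef2a lay near the 5′ end. Peak 8 (chr7:67359604-67360256), 12.9 kb after the start, had 120, 143 and 101 in quiescent and 37.1, 43.0 and 52.5 in proliferating samples. The lowest quiescent value was well above the highest proliferating value, with a log2 fold change of 1.44 (SE 0.25, limma adjusted p 0.0163). Peak 11 (chr7:67370772-67371039), 2.0 kb after the start, had 99.7, 67.2 and 79.0 in quiescent and 20.4, 20.9 and 36.5 in proliferating samples. This narrow peak of 267 bp had the largest log2 fold change of the members, 1.65 (SE 0.32, limma adjusted p 0.0223), and its groups did not overlap.

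Nearby, the peaks at the Mef2a start were not called. Peak 13, which covers the start and the promoter printed above, had 350, 446 and 428 in quiescent and 408, 339 and 351 in proliferating samples. Its groups overlapped, with a log2 fold change of 0.15 (95% interval -0.22 to 0.52, limma adjusted p 0.619). Peak 12, centred 1.0 kb after the start, had 260, 294 and 355 against 205, 220 and 269, groups that overlapped by 1 proliferating sample (log2 fold change 0.39, limma adjusted p 0.254). The strongest Mef2a peak was peak 15, in the upstream flank 42.0 kb before the start, with 468, 424 and 427 in quiescent and 514, 568 and 490 in proliferating samples. All 3 proliferating values were higher, and the log2 fold change was -0.25 (limma adjusted p 0.31), or 0.01 with median-of-ratios scaling. None of the 8 upstream peaks of Mef2a was called, and 6 of them had a log2 fold change below 0.

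Mef2c, on the plus strand of chromosome 13 (83504017 to 83667079), had the most peaks and the strongest ones. It encodes the MEF2 factor best known in B cells. Its signal summed to 18448, 18937 and 18141 in quiescent and 18402, 18239 and 17648 in proliferating samples. These groups overlapped, with a ratio of the means of 1.02. Peaks 22, 35 and 40 held 61.1% of the gene's signal, and each was stronger than at least 99.4% of all deposited peaks.

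The 3 annotated Mef2c starts differed in accessibility in both groups. No listed peak covered the first start. Peak 6 covered the second start, with 490, 516 and 520 in quiescent and 471, 615 and 666 in proliferating samples. These groups overlapped, and the log2 fold change was -0.18 (limma adjusted p 0.53), or 0.02 with median-of-ratios scaling. Peak 22, a region of 4627 bp, covered the third start, with 3588, 3969 and 4084 in quiescent and 4525, 4088 and 4268 in proliferating samples. All proliferating values were above all quiescent values, but the nearest pair differed by 4 units of signal. Its log2 fold change was -0.15 (95% interval -0.35 to 0.06, limma adjusted p 0.368), and it turned to 0.09 with total scaling of the recovered reads and 0.34 with median-of-ratios scaling.

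Peak 35 (chr13:83607656-83610156), inside the gene, was the strongest member. It had 4613, 4366 and 4051 in quiescent and 4439, 4378 and 4144 in proliferating samples. The groups overlapped throughout, with a log2 fold change of 0.01 (95% interval -0.19 to 0.2, limma adjusted p 0.975). Peak 40 (chr13:83648510-83650556) had 2633, 2972 and 2759 against 3090, 2603 and 2482, groups that also overlapped (log2 fold change 0.04, 95% interval -0.22 to 0.29, limma adjusted p 0.873). With median-of-ratios scaling of the recovered reads both passed as higher, each at 0.51 with limma voom adjusted p of 0.031 for peak 35 and 0.0346 for peak 40. Leaving out 1 sample moved the values of peak 35 between -0.04 and 0.06 and those of peak 40 between -0.03 and 0.13.

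**Figure D3:**
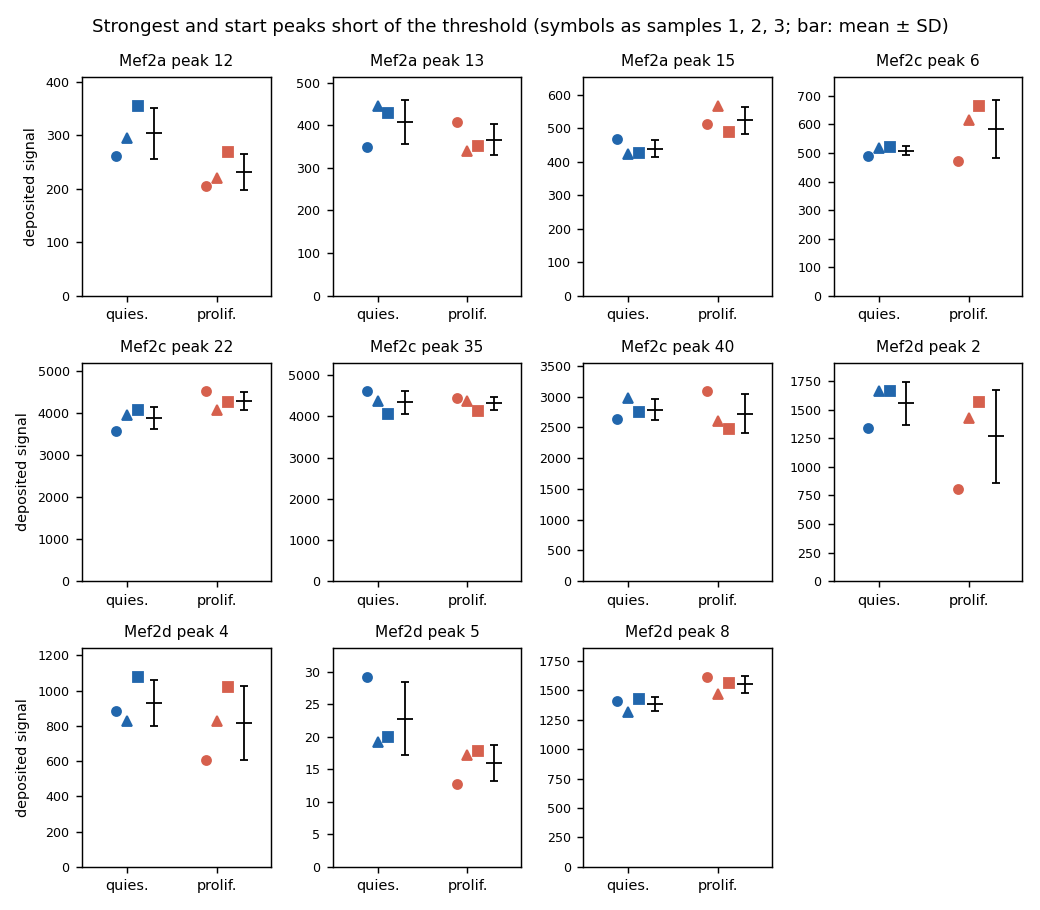
Deposited signal per sample (circle, triangle and square for samples 1, 2 and 3) with mean ± SD, n = 3 per group, for the 11 Mef2 peaks that were named for their strength or their place at a start and did not pass the threshold. The axes start at 0. The groups overlap in Mef2c peaks 35 and 40 and lie close together in Mef2c peak 22, whose direction turned with the scaling of the recovered reads, as did those of Mef2a peak 15, Mef2c peak 6 and Mef2d peaks 5 and 8.

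Between peak 22 at the third start and peak 35, the signal of weaker Mef2c peaks was higher on average in quiescent cells. This stretch of 12 peaks was singled out after its values had been seen and was given no test of its own. All 12 had a log2 fold change above 0 (0.06 to 1.39, median 0.9). At 9 of them the quiescent samples lay wholly above the others, 2 passed the threshold, and 7 passed with the replicate block, where the shares of all tested peaks are 15.4%, 4.01% and 10.2%. As the stretch was chosen for these values, nothing is read from its counts. The other 38 tested Mef2c peaks had a median of -0.12, with no call by limma, and 3 higher and 3 lower with the replicate block.

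Peak 26 (chr13:83581989-83582342) of this stretch had 182, 167 and 140 in quiescent and 56.1, 72.9 and 67.4 in proliferating samples. The lowest quiescent sample was well above the highest proliferating sample, and the log2 fold change was 1.3 (SE 0.22, limma adjusted p 0.0144). Peak 23 (chr13:83578645-83579285) had 93.0, 67.8 and 56.9 against 25.2, 24.9 and 29.5, with a log2 fold change of 1.39 (SE 0.29, limma adjusted p 0.0277). Its groups did not overlap. Peak 34 (chr13:83603391-83605313), beside peak 35 and the strongest of the stretch, had 873, 735 and 736 against 597, 506 and 505. Its groups did not overlap either, and its log2 fold change of 0.54 gave a limma adjusted p of 0.0554, or 0.00924 with the replicate block. Peaks 25, 27, 29 and 32 also passed only with the block, at log2 fold changes of 1.0, 0.59, 1.0 and 1.3.

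Between the second and the third start, other Mef2c peaks passed only with the replicate block. Peaks 10, 11 and 12 were higher there (log2 fold change 0.7, 0.43 and 0.8, limma adjusted p with the block 0.045, 0.0488 and 0.0287). Peak 13, next to peak 12, was lower, with 256, 265 and 169 in quiescent and 312, 399 and 316 in proliferating samples (log2 fold change -0.59, adjusted p 0.135 by limma and 0.0299 with the block). Its groups did not overlap.

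Downstream of Mef2c, 6 of 7 tested peaks had a log2 fold change below 0, with a median of -0.73 over the 7. None was called by limma without the block. Peak 49 had 97.9, 110 and 162 in quiescent and 177, 269 and 264 in proliferating samples, groups that did not overlap (log2 fold change -0.94, adjusted p 0.0612, or 0.00618 with the block). This peak lies over the microRNA gene Mir9-2 and the non-coding gene C130071C03Rik, 70796 bp beyond the end of Mef2c. Peak 47, over C130071C03Rik as well, had 32.3, 45.3 and 38.1 against 80.4, 81.5 and 61.8 (log2 fold change -0.94, adjusted p 0.0698, or 0.0341 with the block). Of all members, 13 lie between coding genes and over a non-coding gene, and none of them was called by limma without the block.

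Mef2d, on the plus strand of chromosome 3 (88141941 to 88172091), had 1 called peak among 17 tested. It encodes a widely expressed MEF2 factor. Its signal summed to 5469, 5689 and 6187 in quiescent and 5116, 5598 and 6346 in proliferating samples, groups that overlapped. The called peak 11 (chr3:88153276-88154027), inside the gene, had 86.7, 98.7 and 116 in quiescent and 47.5, 47.6 and 59.6 in proliferating samples. Its groups did not overlap, and its log2 fold change was 0.95 (SE 0.24, limma adjusted p 0.0487), the value closest to the threshold among the called peaks. It missed the threshold with no filter on low signal (adjusted p 0.0548), the filter at the median peak (0.0527), no trend (0.0544) and quantile normalization (0.0576). With total scaling of the recovered reads its log2 fold change was 0.54 (limma voom adjusted p 0.181).

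The stronger Mef2d peaks differed less. Peak 4, over the start, had 882, 828 and 1079 in quiescent and 604, 828 and 1020 in proliferating samples. These groups overlapped, with a log2 fold change of 0.21 (95% interval -0.24 to 0.66, limma adjusted p 0.569), or 0.01 without proliferating sample 1. Peak 2, 2111 bp upstream of the gene, had 1342, 1661 and 1662 against 806, 1428 and 1565 (log2 fold change 0.35, limma adjusted p 0.402). The value of proliferating sample 1 stood below the others, and without that sample the log2 fold change was 0.05. Peak 8, the strongest, had 1408, 1317 and 1427 against 1614, 1469 and 1563. All proliferating samples were higher, with a log2 fold change of -0.16 (95% interval -0.4 to 0.08, limma adjusted p 0.39), or 0.23 with median-of-ratios scaling. Peak 5, a weak peak 0.9 kb after the start, had 29.2, 19.2 and 19.9 against 12.7, 17.2 and 17.8, with a log2 fold change of 0.48 (limma adjusted p 0.503) that became -0.13 with total scaling. Upstream, peak 1 had 307, 231 and 248 against 394, 348 and 392, groups that did not overlap (log2 fold change -0.53, adjusted p 0.0957, or 0.0287 with the block).

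**Figure D4:**
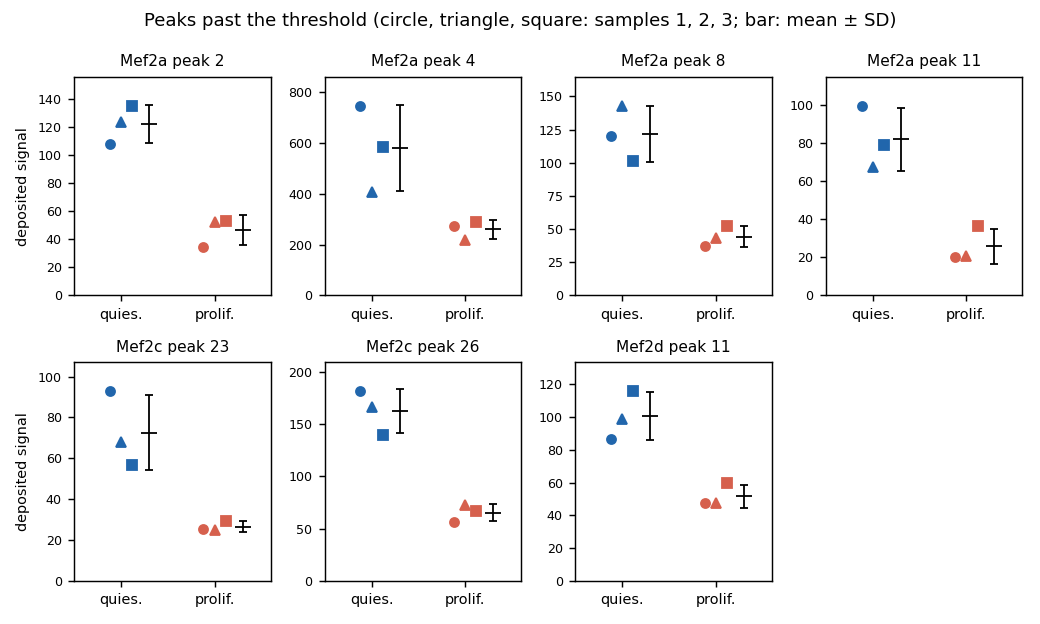
Deposited signal per sample (circle, triangle and square for samples 1, 2 and 3) with mean ± SD, n = 3 per group, for the 7 member peaks past the threshold. The axes start at 0. In each panel every quiescent sample lies above every proliferating sample, and the widest spread is among the quiescent samples of Mef2a peak 4.

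The calls depended on single samples. Without quiescent sample 2, quiescent sample 3 or proliferating sample 2 none of the 7 peaks passed, beside 161, 0 and 790 peaks of the whole list. Without proliferating sample 3 the 2 peaks Mef2a 8 and 11 passed, and without quiescent sample 1 all but Mef2c peak 23 and Mef2d peak 11 did. Without proliferating sample 1, all but Mef2d peak 11 passed and 13 members were called in all. All 7 kept an unadjusted p under 0.05 by limma in each of these 6 fits. Their sign could not turn, because at each of them every quiescent sample lay above every proliferating sample. Proliferating sample 1, the shallowest, held 8 to 21 reads in 6 of the 7 peaks and 101 in Mef2a peak 4. The start peak of Siglech and 1 start peak of Klrb1c were also higher and 1 of Pax5 lower in quiescent samples (above). With the replicate block, the start peak of Itgam was called higher as well (log2 fold change 0.69). Those of Acta2 (-0.56) and Igll1 (-0.27) were then called lower. The part of other cell types in the Mef2 values was not tested.

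Mef2b, the remaining gene of the family, is no member and was looked at beside the others. It has 4 peaks on chromosome 8, none was called, and their log2 fold changes ranged from -0.38 to -0.06. Peak 1 at its start had 184, 140 and 144 in quiescent and 182, 206 and 219 in proliferating samples, groups that overlapped (limma adjusted p 0.264). Its strongest, peak 2, had 572, 562 and 696 against 494, 720 and 716 (log2 fold change -0.06, or 0.16 with median-of-ratios scaling).

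The start peaks of the Mef2 genes were also set beside those of 40 other genes of the pathway and marker lists by the root mean square difference of their log2 deviations over the 6 samples. For Mef2a peak 13 the nearest were Jun (0.12), Prkd2 (0.15) and Bst2 (0.17), where the median over the genes was 0.3. For Mef2c peak 22 they were Mapk14 (0.05), Bst2 (0.07) and Ncor1 (0.09), with a median of 0.24. For Mef2d peak 4 they were Sik3 (0.11), Klf4 (0.17) and Nr4a1 (0.19), with a median of 0.32.

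Among genes for MEF2 partners and repressors, 12 peaks were higher and 7 lower in quiescent cells out of 187 tested (10.2% called, against 6.72% of all peaks), with a median log2 fold change of -0.05. With the block 16 were higher and 21 lower. The class IIa histone deacetylases, which bind MEF2 and repress its targets, had no call at their strongest peaks. Among their other peaks, 2 of Hdac7 (of 13 tested) were higher, and of Hdac9 (38 tested) 2 were higher and 1 lower. At Hdac7, the class IIa enzyme known from lymphocytes, the strongest peak had 2511, 2729 and 2501 in quiescent and 2599, 2440 and 2562 in proliferating samples (log2 fold change 0.03, limma adjusted p 0.897). At the strongest peaks of Hdac4 and Hdac9 the log2 fold change was -0.2 and 0.05. At Hdac5 it was -0.81 (271, 167 and 164 against 439, 345 and 266, groups that overlapped by 1 sample), with a limma adjusted p of 0.0939, or 0.00579 with the block. Among the larger rises was a peak 46147 bp from Ep300, the gene of the acetyltransferase p300 (log2 fold change 1.22, limma adjusted p 0.0357). Another was a peak in Ncoa2, a coactivator gene (1.19, limma adjusted p 0.0169). Among the larger falls were a peak near Crebbp, the gene of the p300 relative CBP (-1.27, limma adjusted p 0.0415), and another peak in Ncoa2 (-0.94, limma adjusted p 0.0244), so Ncoa2 had peaks that moved in both directions.

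Among the kinases and phosphatases upstream of MEF2, 10 of 269 tested peaks were higher and 10 lower (7.43% called, against 6.72% of all peaks). Their median log2 fold change was 0.05. With the block 29 were higher and 31 lower, and Camk1 and Prkd1 had no tested peak. Mapk14 encodes p38 alpha, which phosphorylates MEF2A and MEF2C, and 3 of its 12 peaks were higher. The strongest of the named ones had 438, 604 and 752 in quiescent and 178, 158 and 198 in proliferating samples (log2 fold change 1.71, SE 0.22, limma adjusted p 0.00773). A peak near Camk1d, a calcium and calmodulin-dependent kinase, had the largest fold change of the lists (2.06, 117, 233 and 108 against 23.9, 38.6 and 41.1, limma adjusted p 0.0152). Camk2d, a kinase of the same superfamily, had 6 lower and 2 higher peaks of 52, and the largest fall among them was from 1723, 1783 and 1448 in proliferating to 719, 698 and 613 in quiescent samples (log2 fold change -1.28, limma adjusted p 0.00557). Sik1, a kinase that phosphorylates class IIa histone deacetylases, had 2 lower peaks (log2 fold change -1.32 and -1.24), both between genes.

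Among 5 known MEF2 targets, 6 peaks were higher and 1 lower of 61 tested (11.5% called, against 6.72% of all peaks, median log2 fold change 0.07). With the block 9 were higher and 7 lower. Near Nr4a1, which encodes an orphan nuclear receptor induced by antigen receptor signals, a peak had 479, 760 and 884 in quiescent and 284, 167 and 254 in proliferating samples (log2 fold change 1.58, SE 0.27, limma adjusted p 0.0152). The strongest Nr4a1 peak had a log2 fold change of 0.03. Klf4, a growth-restraining zinc finger factor in B cells, had 4 higher peaks and 1 lower of 22, and its strongest peak was among the higher ones, with 1330, 1034 and 1240 against 833, 626 and 688 (log2 fold change 0.75, limma adjusted p 0.0263). The others named were 1.56 and 1.2 for rises and -1.08 for the fall. These Klf4 peaks lay between genes, the strongest 52819 bp from Klf4 and the others 10247, 48257 and 56851 bp from it. The strongest peaks of Nr4a1, Klf2 and Egr1 also lay between genes, at 5081, 14404 and 14738 bp from them. Such peaks are given to a gene by distance only. The strongest peaks of Jun and Egr1, immediate-early genes, had log2 fold changes of 0.08 and -0.03. That of Klf2, a quiescence factor of lymphocytes, had 0.5 (1578, 1604 and 1292 against 889, 1164 and 1110, limma adjusted p 0.074, or 0.0175 with the block), and its groups did not overlap. Over the lists together 28 peaks were higher and 18 lower of 517 (8.9%, against 6.72% of all peaks). With the block 54 were higher and 59 lower, where 10.2% and 8.14% of all tested peaks were. The block counts of the single lists stand against the same shares. Under total scaling of the recovered reads 30 were higher and 61 lower, where 5% and 9.94% of all tested peaks were. Median-of-ratios scaling gave 54 higher and 19 lower, where it gave 9.98% and 3.99% of all tested peaks. The balance of the lists turned with the scaling, as did that of all peaks. Without quiescent sample 2, quiescent sample 3, proliferating sample 2 or proliferating sample 3, the 46 list calls fell to 1, 0, 4 and 8.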

How the data were processed

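ATAC-seq was analysed in 6 samples. The authors deposited 1 shared list of 97124 mm10 peaks with a signal value for every sample. Per the submitters' processing notes, Bowtie2, SAMtools and MACS2 were used; versions, settings and the kind of scaling: not given in the sources used here. Per the labels' protocols, each sample was sequenced in 2 runs. The deposited signal is not whole, but its values lie on steps worth 1 read that change with peak strength. The recovered reads were within 0.1 of a whole number for 99.6% to 100.0% of values of 1 to 1000 reads. The median peak held 27 to 179 reads.

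Each peak was tested with limma 3.58.1 in R 4.3.3 (trend on) on log2(signal + 1), for 87411 peaks, leaving out the 10% with the lowest mean. Adjusted p-values are Benjamini-Hochberg values over all tested peaks, with a threshold of 0.05. Fold changes are quiescent against proliferating on the log2(signal + 1) scale and understate those of weak peaks. Percent of peaks called and non-overlapping groups are given over all tested peaks as background. The test was also run on simulated data with the same independent spread at every peak and in every sample. The simulation had no depth difference or replicate effect, so it does not show how the test behaves on these samples. Alternatives changed the pseudocount, filter, trend, normalization, member rule and samples, used limma voom on recovered reads, or added the replicate number as a block. Same-numbered quiescent and proliferating samples deviated together (correlations of 0.43, 0.285 and 0.21), and the block takes the numbers in the labels as pairs. The main test had the group only, so its calls leave any pairing out. Samples 2 and 3 are less clearly told apart: quiescent 2 with proliferating 3 gave 0.22 and quiescent 3 with proliferating 2 gave 0.146. Python 3.11.15, numpy 2.4.6, pandas 2.3.3 and matplotlib 3.10.9 were used.

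Members were assigned with RefSeq genes of GRCm38.p6, the assembly of mm10; coordinates are as in the deposited peak names. Peaks were named when within 1 kb of a start, among a gene's 3 strongest or past the threshold; peaks named for the block or for the stretch inside Mef2c were chosen after their values were seen. From the pathway lists, at most 3 called peaks per direction and list and the strongest peaks of the targets and class IIa deacetylases were named; some of these are not reported here. The members and lists were chosen with earlier results of these data known. Exons, and sequence outside promoters, were not used here.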

Additional observations from a re-analysis of the deposited data

How the results depend on the processing

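The number of Mef2 peaks called stayed at 5 to 7 under another pseudocount, filter, trend setting, quantile normalization or member rule. One lower peak appeared when only peaks above the median were tested. The number called became 17 with recovered reads under either scaling and 19 with the replicate block, which takes same-numbered samples as pairs. It ranged from 0 to 13 without 1 sample. Pathway list calls went from 46 to 24 without the trend, 91 with total and 73 with median-of-ratios scaling, 113 with the block, and 0 to 54 without 1 sample. For all peaks the 5876 calls became 3247, 13058, 12208 and 15999 in the same order, and 0 to 8241 without 1 sample; without quiescent sample 3, where limma called 0, 16512 peaks had an unadjusted p under 0.05. Higher peaks were 59.6% of all calls, 33.5% with total and 71.5% with median-of-ratios scaling. Total scaling moved the median of all peaks to -0.261. Of the Mef2 and pathway list peaks named by rule, the block changed the calls of the strongest Hdac5 and Klf2 peaks and no other. Among the marker start peaks, the block also called that of Itgam higher and those of Acta2 and Igll1 lower.

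Among the peaks named by rule, log2 fold changes turned sign only for some that had not passed. Signs of the other members are not given here by peak. Total scaling moved the median of Mef2a from 0.18 to -0.1 and that of Mef2c from 0.06 to -0.04. With total scaling Mef2c peak 22 was 0.09 and Mef2d peak 5 was -0.13. With median-of-ratios scaling Mef2a peak 15 was 0.01, Mef2c peaks 6 and 22 were 0.02 and 0.34, Mef2d peak 8 was 0.23 and Mef2b peak 2 was 0.16. Leaving out 1 sample gave -0.04 to 0.06 for Mef2c peak 35 (below 0 without quiescent sample 1 or proliferating sample 3) and -0.03 to 0.13 for peak 40 (below 0 without quiescent sample 2 or proliferating sample 3). It gave -0.24 to 0.03 for Mef2b peak 2 and -0.4 to 0.02 for peak 4 (above 0 without proliferating sample 3, and for peak 2 also without proliferating sample 2). The cause of these changes was not tested. With 3 samples per group and 8052910 reads in the shallowest, small differences at weak peaks were not detectable.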
